A study of Homo sapiens with 2 samples.

Results

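To see where RFX6 was located at genes of DNA repair, 57 named repair genes were looked up in a list of binding intervals from the human HCC (hepatocellular carcinoma) line MHCC-97H. The 57 genes were listed by name, at a time when earlier results of these data were known. They belong to mismatch repair, nucleotide excision repair, homologous recombination, end joining, crosslink repair, single-strand break repair and damage signalling. They were 57 of 20037 protein-coding genes examined, and all 57 were found in the gene table. The list came from chromatin immunoprecipitation followed by sequencing (ChIP-seq) with an antibody against the HA tag, in cells transduced with a plasmid for HA-tagged RFX6, which belongs to the RFX (regulatory factor X) transcription factors. There was 1 ChIP library and 1 input library, and no processed file of the input was analysed here. The protein was overexpressed and tagged, so the intervals do not show where RFX6 lies at its own level. No ChIP replicate and no precipitation without the tag was analysed here, so no error between samples and no test of a difference could be given. The depth behind each interval was unknown.

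DNA repair is carried out by pathways that each handle a different lesion. Mismatch repair corrects copying errors, nucleotide excision repair removes bulky lesions such as those made by ultraviolet light, and single-strand break repair rejoins nicks. Breaks of both strands are mended by homologous recombination, which copies an intact sequence, or by end joining, which ligates the ends directly. The Fanconi anaemia genes act at crosslinks between strands, and the kinases ATM and ATR signal the damage to the cell cycle. Most of these genes are transcribed in dividing cells of many tissues. RFX proteins bind DNA through a winged-helix domain at a sequence called the X-box.

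The list held 5019 distinct intervals on chromosomes 1 to 22 and X. Each had a whole-number score given by the authors, whose meaning is not stated, with a median of 30 (quartiles 22 and 39, range 13 to 170). It served only to rank intervals within the list. The submitters' processing notes name GRCh37, but the positions matched GRCh38. Of 4866 intervals on chromosomes with annotated starts, 2402 (49.4%) had their midpoint within 500 bp of a start of a protein-coding gene in RefSeq GRCh38.p14, whereas 97 (1.99%) and 91 (1.87%) did so after a move of 20 kb down or up. Coordinates are therefore given in GRCh38.

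An interval was found at the end of 20 of the 57 repair genes, counted when its midpoint lay within 1 kb of either end of the gene. This was 35.1% of the genes (95% Wilson interval 24.0% to 48.1%), compared with 3100 of all 20037 protein-coding genes, or 15.5%. With intervals in the gene body included, 21 of the 57 genes (36.8%, 25.5% to 49.8%) had an interval, compared with 19.5% of all protein-coding genes. The added gene was ERCC1, and 36 genes had none. The Wilson intervals cover the counting of genes only, since genes are not replicates. Members lie on chromosomes that differ in how many genes had an interval. Weighting each chromosome's share by its number of members gave 9.49 genes (16.6%), which was near the share of all genes.

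**Figure D1:**
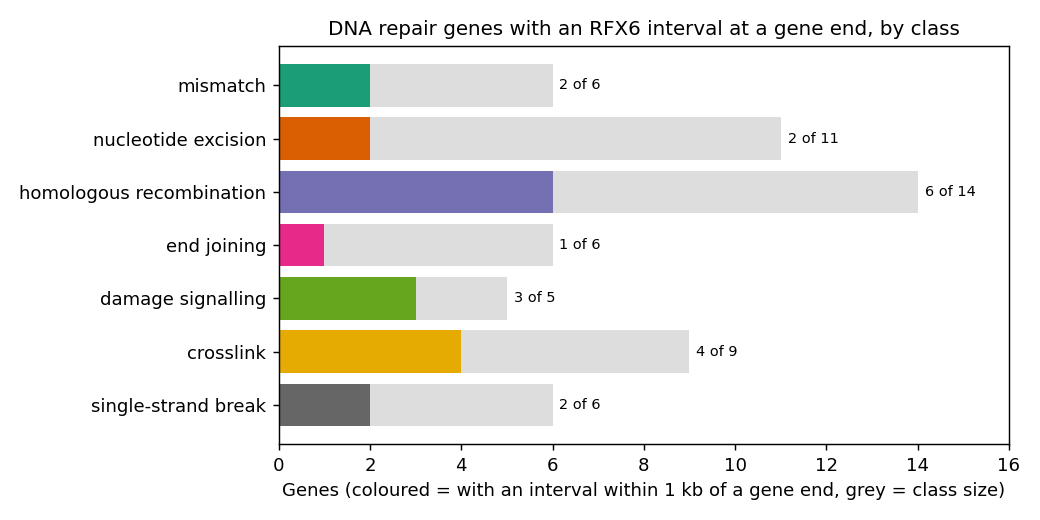
Number of DNA repair genes in each class (grey bars) and number with an RFX6 interval within 1 kb of a gene end (coloured bars). Homologous recombination had 6 of 14 genes, crosslink repair 4 of 9, damage signalling 3 of 5 and end joining 1 of 6. The share of all protein-coding genes was 15.5%.

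In homologous recombination, 6 of 14 genes had an interval at an end (42.9%, 21.4% to 67.4%, compared with 15.5% of all protein-coding genes). This class held the highest score of all member intervals. RAD50, which with MRE11 and NBN forms the complex that senses broken ends, had an interval of 258 bp with a score of 60 at chr5:132556980-132557237, ranked 304 of 5019. It began 3 bp after the annotated start. NBN had an interval with a score of 39 at chr8:89984188-89984626, whose midpoint was 260 bp from the high-coordinate end of the gene, and MRE11 had none. The complex was thus represented by 2 of its 3 genes.

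RAD52, a protein that anneals single strands, was the only member with more than 1 interval. The first, at chr12:990906-991177 with a score of 42, spanned the outer 5′ end of the gene. The other, at chr12:949734-950231 with a score of 59, lay 38246 bp inside the gene by its midpoint, but ended only 40 bp before an internal annotated start. XRCC2, a recombination factor, had an interval of 387 bp with a score of 43 at chr7:152675947-152676333, whose midpoint was 1 bp from the start. RAD51D had an interval with a score of 13, the lowest value in the list, at chr17:35119778-35120013. This interval also lies within the readthrough gene RAD51L3-RFFL. RAD51C and XRCC3 had none. BLM, the helicase mutated in Bloom syndrome, had an interval with a score of 13 at chr15:90717428-90717667, whereas the related helicase gene WRN had none. BRCA1, BRCA2 and PALB2, whose products load the recombinase on resected ends, and RBBP8, which starts resection, also had none.

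Among the damage signalling genes, 3 of 5 had an interval (60.0%, compared with 15.5% of all protein-coding genes). ATR, the kinase that responds to single-stranded DNA, had a score of 45 at chr3:142578663-142578944, an interval that spanned the start. ATM, the kinase that responds to broken ends, had a score of 35 at chr11:108222754-108222994, between its own start and that of NPAT. TP53BP1, a chromatin reader at breaks, had a score of 18 at chr15:43510921-43511171. The kinase gene CHEK2 and the scaffold gene MDC1 had none.

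The crosslink class had 4 of 9 genes (44.4%, 18.9% to 73.3%, compared with 15.5% of all protein-coding genes). FANCI, which with FANCD2 forms the clamp that is ubiquitinated at crosslinks, had the widest member interval, 619 bp with a score of 50 at chr15:89243586-89244204. Its midpoint was 84 bp from the low-coordinate end of the gene. FANCA, FANCE and FANCF, which belong to the core complex that ubiquitinates this clamp, had lower scores. FANCF had a score of 29 at chr11:22625582-22625828, FANCE 22 at chr6:35452563-35452856 and FANCA 21 at chr16:89816742-89816995. No interval was found at FANCD2, FANCC, FANCG, FANCL or FANCM.

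In nucleotide excision repair, 2 of 11 genes had an interval at an end (18.2%, 5.14% to 47.7%), near the 15.5% of all protein-coding genes. At a start, 3 of 11 had one (27.3%, compared with 16.3%). XPA, which verifies the lesion, had a score of 43 at chr9:97697211-97697411. ERCC5, whose product cuts on one side of the lesion, had a score of 33 at chr13:102845717-102846050, within the readthrough gene BIVM-ERCC5. ERCC1, a subunit of the nuclease that cuts on the other side, had an interval of 614 bp with scores of 45 and 33 on its lines at chr19:45423366-45423979. It lay 16338 bp from the nearest gene end but spanned an annotated start of ERCC1. ERCC4, which encodes the partner of ERCC1, had none, nor did the other 7, XPC, DDB1, DDB2, ERCC2, ERCC3, ERCC6 and ERCC8. The genes without an interval included the helicases of the opening step, ERCC2 and ERCC3, and the damage sensors XPC and DDB2.

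In mismatch repair, 2 of 6 genes had an interval (33.3%, compared with 15.5% of all protein-coding genes). MSH6, a subunit of the mismatch sensor, had a score of 25 at chr2:47782927-47783444. PMS1 had a score of 29 at chr2:189784130-189784329, and its relatives PMS2 and MLH3 had none. MSH3, the alternative sensor subunit, and the exonuclease gene EXO1 had none either. Single-strand break repair likewise had 2 of 6 genes (33.3%). APEX1, the endonuclease that cuts at abasic sites, had a score of 46 at chr14:20454728-20455008, and PARP1, the sensor of strand breaks, had a score of 35 at chr1:226407974-226408252. PARP2, XRCC1, LIG3 and POLB had none.

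In end joining, 1 of 6 genes had an interval (16.7%), near the 15.5% of all protein-coding genes. NHEJ1, a ligation cofactor, had an interval at chr2:219160307-219160724 that was listed on 4 lines with scores of 21 and 15. The genes of the DNA-dependent protein kinase, PRKDC, XRCC5 and XRCC6, and of the ligase complex, LIG4 and XRCC4, had no interval. The class sizes were small, and the Wilson intervals of this class (3.01% to 56.4%) and of damage signalling (23.1% to 88.2%) overlapped.

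The intervals were then placed relative to annotated starts. The promoter table gave a strand and at least 1 start for 51 of the 57 genes. NBN, FANCI, POLB, WRN, XRCC5 and PRKDC were not matched. Of the 51 genes, 19 (37.3%, 25.3% to 51.0%) had an interval with its midpoint within 1 kb of a start, compared with 16.3% of 15843 protein-coding genes with a start. At the far end of the gene, 0 of the 51 had an interval, which allows a share of up to 5.88%, and 1.15% of all these protein-coding genes had one. Both intervals that lay deep in a gene body, at RAD52 and ERCC1, were beside an internal start.

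**Figure D2:**
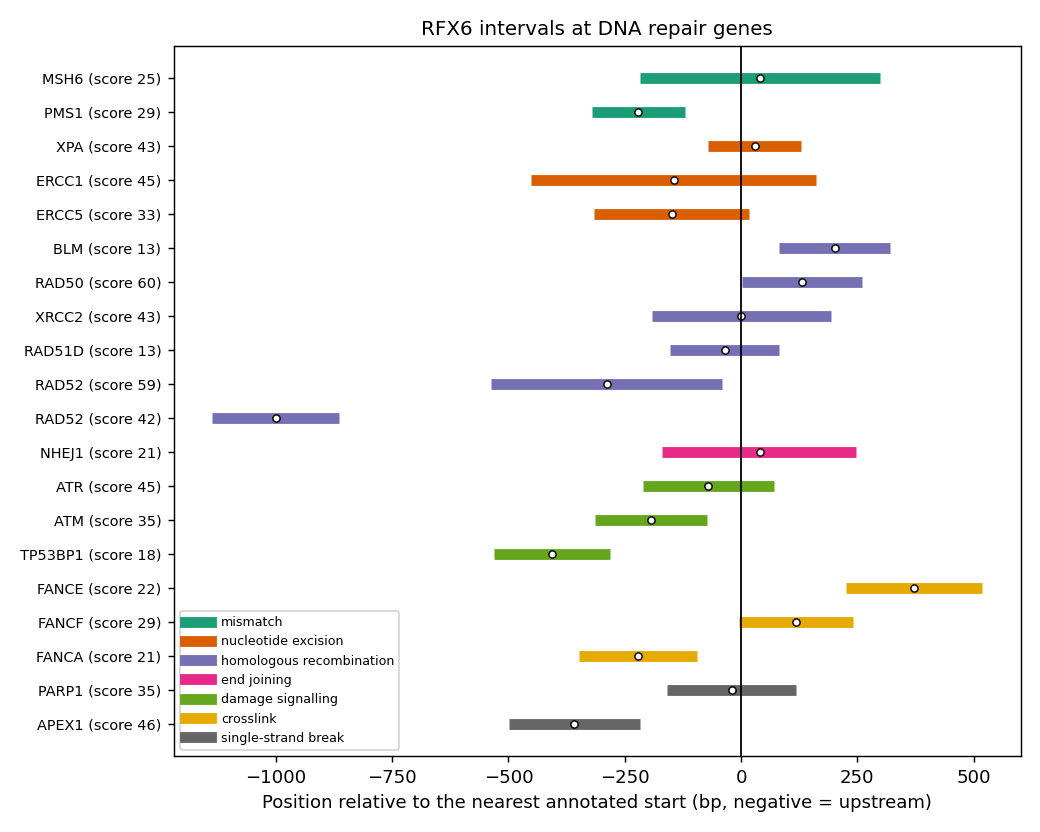
Extent (bars) and midpoint (white dots) of the 20 intervals at 19 DNA repair genes with a start in the table, in bp from the nearest annotated start, coloured by class. The midpoints of 19 intervals lay within 500 bp of a start, and the remaining one, at the outer end of RAD52, lay 1000 bp upstream of the nearest start in the table.

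Of the 20 intervals at these 19 genes, 10 spanned the start, 7 lay wholly before it and 3 wholly after it. The median distance of the midpoint from the start was 146.5 bp. These values are given for members only. Over all protein-coding genes with a start, 2581 had an interval within 1 kb of it and 2380 within 500 bp. Closeness to starts was thus general to the list. The 3 intervals wholly downstream were those of RAD50, BLM and FANCE, of which the FANCE interval lay farthest, from 225 to 518 bp after the start. The farthest upstream, apart from RAD52, were those of TP53BP1, from 531 to 281 bp before the start, and APEX1, from 498 to 218 bp before it.

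The bases before the start are shown for the 8 genes with the highest scores whose interval at a gene end reached into the 250 bases upstream, so that the part under the interval can be seen. Sequences are from RefSeq, build GRCh38.p14, written 5′ to 3′ on the strand of the gene and ending at the base before the start. FANCF and PMS1 had the same score of 29, and FANCF was taken in alphabetical order. Capitals mark the bases under the interval.
APEX1, chr14:20454976-20455225, plus strand: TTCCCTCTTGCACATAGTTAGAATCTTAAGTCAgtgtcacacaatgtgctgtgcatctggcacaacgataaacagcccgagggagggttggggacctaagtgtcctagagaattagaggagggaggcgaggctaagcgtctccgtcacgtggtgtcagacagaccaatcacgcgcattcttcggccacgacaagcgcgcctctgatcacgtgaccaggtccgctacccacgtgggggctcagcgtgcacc
ATR, chr3:142578734-142578983, minus strand: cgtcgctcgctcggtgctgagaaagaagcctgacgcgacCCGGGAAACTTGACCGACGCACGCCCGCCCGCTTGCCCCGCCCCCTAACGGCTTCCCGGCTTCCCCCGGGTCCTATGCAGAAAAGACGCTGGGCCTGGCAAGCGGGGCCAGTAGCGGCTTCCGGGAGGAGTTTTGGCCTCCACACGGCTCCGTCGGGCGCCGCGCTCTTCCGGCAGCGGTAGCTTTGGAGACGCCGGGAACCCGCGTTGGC
XPA, chr9:97697341-97697590, minus strand: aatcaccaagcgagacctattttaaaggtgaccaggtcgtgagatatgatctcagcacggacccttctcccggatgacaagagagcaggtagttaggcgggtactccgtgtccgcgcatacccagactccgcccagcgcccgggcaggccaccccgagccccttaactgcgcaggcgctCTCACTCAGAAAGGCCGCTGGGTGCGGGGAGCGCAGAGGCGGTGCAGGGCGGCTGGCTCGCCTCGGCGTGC
XRCC2, chr7:152676142-152676391, minus strand: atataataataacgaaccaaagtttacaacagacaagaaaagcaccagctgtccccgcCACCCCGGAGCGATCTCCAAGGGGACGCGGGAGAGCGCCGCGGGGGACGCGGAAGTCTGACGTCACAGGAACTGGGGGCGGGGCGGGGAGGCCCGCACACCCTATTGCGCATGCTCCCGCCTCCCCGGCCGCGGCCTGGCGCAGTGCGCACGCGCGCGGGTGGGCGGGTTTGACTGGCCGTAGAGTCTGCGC
ATM, chr11:108222817-108223066, plus strand: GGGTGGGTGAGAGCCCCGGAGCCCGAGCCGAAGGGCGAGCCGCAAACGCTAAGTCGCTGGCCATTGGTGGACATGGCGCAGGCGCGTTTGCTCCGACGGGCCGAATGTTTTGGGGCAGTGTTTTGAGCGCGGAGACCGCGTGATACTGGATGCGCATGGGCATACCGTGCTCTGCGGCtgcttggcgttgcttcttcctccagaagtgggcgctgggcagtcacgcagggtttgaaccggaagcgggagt
PARP1, chr1:226408094-226408343, minus strand: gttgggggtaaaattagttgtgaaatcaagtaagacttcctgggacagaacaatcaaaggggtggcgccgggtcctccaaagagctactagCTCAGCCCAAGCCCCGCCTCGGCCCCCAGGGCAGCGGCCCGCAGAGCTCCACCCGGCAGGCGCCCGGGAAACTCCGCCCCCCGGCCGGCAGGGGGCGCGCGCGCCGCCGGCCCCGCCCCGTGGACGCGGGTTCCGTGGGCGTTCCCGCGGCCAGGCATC
ERCC5, chr13:102845782-102846031, plus strand: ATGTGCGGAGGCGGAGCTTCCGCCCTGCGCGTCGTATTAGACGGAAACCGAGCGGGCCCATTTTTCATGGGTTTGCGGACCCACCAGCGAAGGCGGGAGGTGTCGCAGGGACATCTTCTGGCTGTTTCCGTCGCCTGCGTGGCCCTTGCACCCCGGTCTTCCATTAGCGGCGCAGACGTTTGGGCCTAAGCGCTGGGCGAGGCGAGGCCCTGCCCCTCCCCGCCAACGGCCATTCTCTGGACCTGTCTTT
FANCF, chr11:22625824-22626073, minus strand: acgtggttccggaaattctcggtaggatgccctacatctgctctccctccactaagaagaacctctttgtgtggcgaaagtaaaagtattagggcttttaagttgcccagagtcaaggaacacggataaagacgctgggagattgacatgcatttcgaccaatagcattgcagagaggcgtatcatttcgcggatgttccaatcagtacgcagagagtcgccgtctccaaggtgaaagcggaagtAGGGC

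The covered part differed from gene to gene. All 250 bases were covered at ERCC5, 211 at ATR, 192 at XRCC2, 178 at ATM, 159 at PARP1 and 71 at XPA, whereas only 33 bases at the distal edge were covered at APEX1 and 5 next to the start at FANCF. The GC content of these upstream stretches ranged from 49.2% at FANCF to 70.4% at PARP1.

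These promoters were searched on both strands for short letters of known motifs. The core of the X-box, GTTGCC, was present in the 300-base promoter (250 bases before and 50 from the start, at the outermost start) of 4 of the 19 genes with an interval at a start (21.1%) and of 1 of the 32 without (3.12%). The share was 12.6% of 15843 protein-coding promoters and 12.3% of the 2581 with an interval. The 4 genes were FANCF, PMS1, RAD50 and TP53BP1, and the other was EXO1. In FANCF these letters began 149 bases before the start, in lower case above, while the interval reached 5 bases before it. In PMS1 and RAD50 they likewise lay outside the interval. The interval of TP53BP1 lay outside the 300 bases searched, and EXO1 had none. The bases of intervals beyond these promoter windows were not searched, which includes the whole intervals of BLM, FANCE, NHEJ1 and RAD52. For ERCC1 the promoter searched was 28019 bp from the start beside its interval, so it held no part of the interval. The longer form GTTGCCATG, which contains GTTGCC, was in 0 of the 51 member promoters and in 0.833% of all promoters.

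Letters of other promoter motifs were counted over the same genes. The GC box GGGCGG was in the promoter of 14 of the 19 genes with an interval at a start (73.7%) and of 23 of the 32 without (71.9%), compared with 58.3% of all. In the stretches shown, it was found 3 times under the interval of XRCC2 and 2 times each under those of ATR and PARP1. It was found 1 time each under those of ERCC5 and XPA, and XPA had another copy outside the interval. The ETS letters CCGGAAG were in 7 of 19 (36.8%) and 8 of 32 (25%), compared with 14.2% of all. ATR had 2 copies, both under the interval, and the copy of ATM, 14 bases before the start, was outside it. The CCAAT box was in 8 of 19 (42.1%) and 13 of 32 (40.6%), compared with 36.4% of all. The cyclic AMP response element TGACGTCA was in 1 of 19, the promoter of XRCC2, and in 4 of 32, compared with 2.56% of all. The NRF1 core GCGCATGC was in 1 of 19, again XRCC2, and in 3 of 32, compared with 4.28% of all. In XRCC2 both lay under the interval. None of the motifs searched was in the promoters of all 19 genes with an interval.

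The scores of the member intervals were spread much like those at other gene ends. Their median was 35 (range 13 to 60), and 13 of the 22 intervals (59.1%) had a score of at least 30. The 22 include intervals in the body of RAD52 (59) and ERCC1 (45), whereas those they were compared with lay at gene ends only. Of the 20 repair genes with an interval at an end, 11 had one with a score of at least 30. The 3054 intervals at ends of protein-coding genes had a median of 32 (quartiles 25 and 43), and 57.1% had a score of at least 30. The highest member scores, 60 at RAD50, 59 at RAD52 and 50 at FANCI, ranked 304, 319 and 615 in the list. The lowest, 18 at TP53BP1 and 13 at BLM and RAD51D, were the 3 below 20. The median width was 280 bp, compared with 282 bp for all intervals at coding gene ends. Of the 22 intervals, 4 were listed on more than 1 line, namely those of ERCC1, ERCC5, NHEJ1 and RAD51D.

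**Figure D3:**
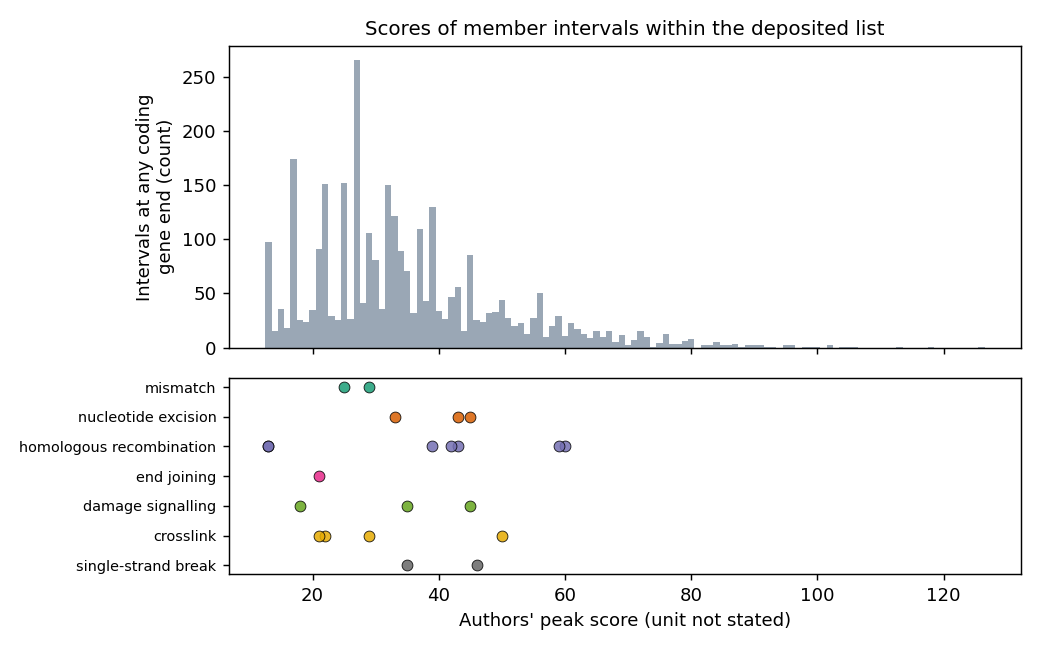
Authors' peak score of the 3054 intervals at ends of protein-coding genes (top, number of intervals per score) and of the 22 intervals at DNA repair genes by class (bottom, 1 dot per interval, with BLM and RAD51D on top of each other at 13). The member scores ran from 13 to 60 whereas the highest score at a coding gene end was 126.

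Several of these intervals also lay at the end of a neighbouring gene. This was the case for 7 of the 20 repair genes with an interval at an end (35.0%), compared with 31.3% of the 3100 protein-coding genes with such an interval. For 4 of them an annotated start of the neighbour lay close by on the opposite strand. ATM shared its interval with NPAT, whose start was 429 bp away, APEX1 with OSGEP (414 bp), TP53BP1 with MAP1A (314 bp) and PMS1 with ORMDL1 (111 bp). FANCF shared its interval with the 5′ end of GAS2, also on the opposite strand, although the nearest GAS2 start in the table was 40753 bp away. NHEJ1 shared its interval with the 3′ end of SLC23A3. RAD50 shared its interval with an end of IL5, which had no start in the table, so which end it was is not given. BLM, which is not among the 7, shared its interval with an end of the non-coding gene CRTC3-AS1. The ATM interval lay between both starts, those of APEX1 and TP53BP1 spanned the start of the neighbour, and that of PMS1 lay beyond it, within ORMDL1. When each interval was given only to the gene with the nearest end, APEX1, PMS1 and TP53BP1 lost theirs. So did ERCC1, whose interval was counted in the gene body.

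Starts with an opposite start close by were then considered whether or not they had an interval. Of 18 member genes with a start of another protein-coding gene on the opposite strand within 1 kb, 4 (22.2%, 9.0% to 45.2%) had an interval at the start, namely the 4 named above. The 14 without included BRCA1, BRCA2, PALB2, CHEK2, MRE11, RAD51C, XPC and PMS2. Of the 33 members without such a neighbour in the table, 15 (45.5%, 29.8% to 62.0%) had an interval. Over all protein-coding genes the shares were 25.4% of 2147 and 14.9% of 13696. By these starts the order of the shares was opposite in members and in all genes, but the members' Wilson intervals overlapped. The 15 include FANCF and RAD50, whose intervals also lay at an end of GAS2 and of IL5. The nearest start of GAS2 in the table was 40753 bp away, and IL5 had no start there. The split of the members thus depends on which starts the table holds.

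Promoters of the repair genes were rich in CpG. The ratio of observed to expected CpG was at least 0.6 in 94.1% of the 51 member promoters and in 65.6% of all protein-coding promoters. Over all genes, this ratio moved with the presence of intervals. In all genes, an interval at the start was found for 22.3% of 10387 promoters at or above this ratio and for 4.78% of 5456 below it. Among the members at or above it, 17 of 48 (35.4%, 23.4% to 49.6%) had an interval. The 3 members below it at their outermost start were RAD52, ERCC1 and DDB2. RAD52 and ERCC1 were counted as having an interval, but that of ERCC1 lay at an internal start, 28019 bp from the promoter whose CpG ratio was taken. The median CpG ratio was 0.899 in the 19 members with an interval at the start and 0.916 in the 32 without. Within the members it was thus not higher with an interval. Within the middle range of member GC content (58.7% to 68.0%), 8 of 25 members (32.0%, 17.2% to 51.6%) and 17.5% of 4998 protein-coding genes had an interval. In both comparisons the share of members was closer to that of all genes than without regard to composition (37.3% and 16.3%). The lower bound of the members' Wilson interval was just above the share of all genes for the CpG-rich promoters and just below it for the GC range. The part of base composition in the members' share was not tested.

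**Figure D4:**
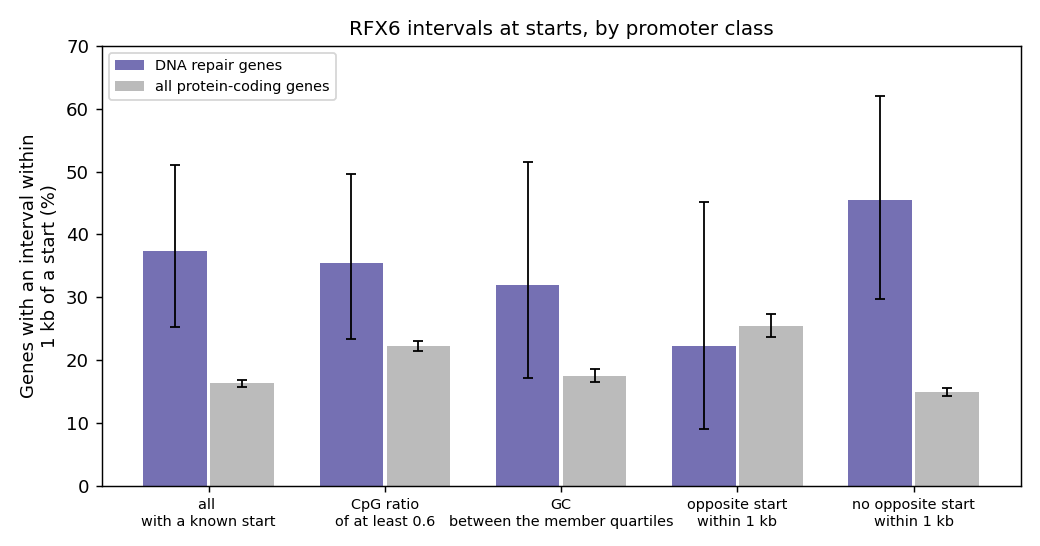
Share of genes with an interval within 1 kb of a start (%, bars) with 95% Wilson intervals, for DNA repair genes (purple) and all protein-coding genes with a start in the table (grey), by promoter class. Members were at 35.4% against 22.3% for CpG-rich promoters and at 22.2% against 25.4% where an opposite start lay within 1 kb.

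The 36 genes without an interval were mostly far from any. The distance from the gene to the nearest interval had a median of 97.9 kb and ranged from 1.65 kb at FANCG to 4630 kb at PRKDC. Only 2 of them, FANCG and DDB1 (3.25 kb), had an interval within 5 kb, and 17 had none within 100 kb. These distances are given without those of other protein-coding genes, so they do not set the repair genes apart. For BRCA1 the nearest interval was 80.1 kb away and for BRCA2 2460 kb. The 1 kb limit fell in an empty stretch, since the member just inside it was TP53BP1, at 406 bp from the gene end, and the member just outside was FANCG, at 1647 bp. The genes with an interval had a median length of 51.3 kb, those without 42.4 kb, and all protein-coding genes 24.1 kb.

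**Figure D5:**
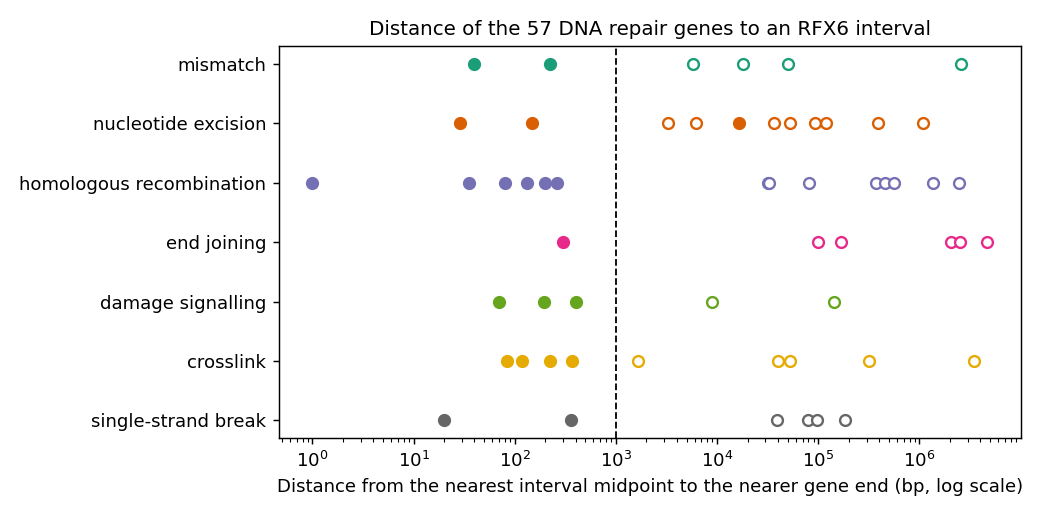
Distance in bp (log scale) from the nearer end of each of the 57 DNA repair genes to the nearest interval midpoint, by class. Filled dots are genes with an interval at an end or in the body and open dots are genes without; the dashed line marks 1 kb, and no gene lay between 406 and 1647 bp. The filled dot right of the line is ERCC1.

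Finally, 94 other repair genes were looked up in the same way. An interval lay at an end of 23 of them (24.5%, 16.9% to 34.0%), a share between those of the 57 members and of all genes. The highest scores were 66 at EME1, a subunit of a nuclease for recombination intermediates, 59 at GTF2H4, a subunit of the repair and transcription factor TFIIH, and 50 at ATRIP, the partner of ATR. ATR and ATRIP thus both had an interval. EME1 and its relative EME2 (score 39) had one, and so did their catalytic partner MUS81 (score 32). The translesion polymerase genes POLH and REV1 each had a score of 43. Further genes with an interval, with their scores, were RNF8 (45), HUS1 (41), RAD9A (37) and UIMC1 (28) for damage signalling, FAAP100 (48), CENPS (41), USP1 (27) and FAN1 (21) for crosslinks, and RAD23B (45) and GTF2H3 (31) for nucleotide excision. The others were POLM (44), SHLD2 (37), RIF1 (32), SWI5 (43), RMI1 (13) and PARP3 (42). Of 47 DNA replication genes, 14 (29.8%, 18.7% to 44.0%) had an interval at an end. Of 11 DNA glycosylase genes 3 had one (27.3%), with OGG1 at a score of 118. The share of all protein-coding genes was 15.5%. The Wilson intervals of these lists and of the 57 members overlapped.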

How the data were processed

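The authors made ChIP-seq libraries from MHCC-97H cells. Peaks were detected by the sequencing company with MACS (version 2.1.0.2) from mapped reads, and the deposited list gives a chromosome, a start, an end and a score of unstated meaning per line. Aligner and duplicate handling are not given in the sources used here. The list held 6214 lines, of which 1 had its positions split at digit separators and was rejoined. Identical positions were counted once with the highest score, and the mitochondrial intervals were left out. Samples were grouped by their titles.

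Genes were taken from RefSeq GRCh38.p14 (20037 protein-coding symbols), and starts and promoter sequences from a RefSeq promoter table that held 51 of the 57 members. An interval was assigned to a gene by its midpoint. All members were named with their interval or its absence, and gene lists, motif letters and the rule for the 8 sequences were written from general knowledge, of which 1 gene is not reported here. The members and lists were chosen with earlier results of these data known. The 0.6 limit of the CpG ratio and the GC range were chosen after the list was seen. Tied scores were given the highest rank. The assignment was tested on simulated data. No test across samples was possible with 1 library. Wilson intervals (95%) cover the counting of genes only. Alternatives were a score of at least 30 or 20, windows of 500 bp, 2 kb and 5 kb, any overlap, merging of intervals, the nearest gene end, and all annotated neighbours. Python 3.11.15, numpy 2.4.6, pandas 2.3.3, scipy 1.17.1 and matplotlib 3.10.9 were used.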

Additional observations from a re-analysis of the deposited data

How the results depend on the processing

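A score of at least 30 lowered the counts most. With it, 11 of the 57 repair genes had an interval at an end (19.3%, compared with 9.50% of all protein-coding genes). At an end or in the body, 12 had one (21.1%, compared with 12.0%). At a start, 10 of 51 had one (19.6%, compared with 9.9%). The 9 genes that dropped out were BLM, FANCA, FANCE, FANCF, MSH6, NHEJ1, PMS1, RAD51D and TP53BP1. With a score of at least 20, BLM, RAD51D and TP53BP1 dropped out and 17 remained at an end (29.8%, compared with 13.8%). In the other alternatives the number at an end ranged from 17, by the nearest gene end, to 22, within 5 kb, where FANCG and DDB1 were added. These were 29.8% compared with 13.4% of all protein-coding genes, and 38.6% compared with 19.8%. The same 19 genes (37.3%) had an interval at a start within 500 bp and within 2 kb. The shares of all protein-coding genes with a start were 15.0% and 17.2%. With all annotated neighbours, 8 in place of 7 of the 20 genes shared an interval. This was 40.0%, below the 47.5% of all protein-coding genes with an end interval. With protein-coding neighbours only, the members' share (35.0%) was above that of all such genes (31.3%).

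No paired analysis was possible because the series holds 1 ChIP library, and for the same reason leaving out replicates was not done. As read depth was unknown, the lack of an interval at a gene does not show the lack of binding there.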
